A study of Mus musculus with 6 samples.

Results

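Mucins and the genes of the goblet cell were examined in lung RNA sequencing of Zpbp2 mutant and control mice. The set holds 8 genes, chosen by symbol: the mucins Muc1, Muc4, Muc5ac, Muc5b and Muc20, and the goblet cell genes Agr2, Spdef and Tff2. All of them were present in the table of 41388 genes, each once, and all passed the filter on low counts. The 6 libraries came from lungs of adult mice killed at Zeitgeber time 7 (ZT7), 7 h after lights on. The 3 control libraries (WT1 to WT3) were from C57BL/6J mice born in the same colony as the mutants, kept in a light and dark cycle with free access to food. The 3 mutant libraries (KO1 to KO3) were from the B6.129S7-Zpbp2 tmZuk/Mmjax strain on a C57BL/6J background, which lacks the first exons of Zpbp2 together with part of its promoter and enhancer. The lesion is constitutive and present in every cell, so the model does not separate lung from body-wide effects. The study related this asthma-associated region to the circadian clock, and the question here is whether the genes of airway mucus differ between the genotypes.

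Mucins are heavily glycosylated proteins that either span the apical membrane of epithelial cells, where Muc1, Muc4 and Muc20 belong, or are secreted and polymerise into the mucus gel, as Muc5ac and Muc5b do. In healthy mouse airways, goblet cells are rare, Muc5b is made by secretory cells of the club type, and Muc5ac is induced in allergic inflammation. Spdef is an ETS transcription factor that drives goblet cell differentiation, Agr2 is an endoplasmic reticulum protein disulfide isomerase needed for mucin folding, and Tff2 is a secreted trefoil peptide found with mucus. Muc1 is also made by alveolar type 2 cells and is therefore not a goblet cell gene alone.

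The libraries held 59134950 to 71354388 counts, with 23070 to 23711 genes detected. Counts of Zpbp2 were 20, 15 and 7 in the order WT1 to WT3, and 1, 0 and 0 in the order KO1 to KO3, which fits the labels. The labels and the study's methods give KO2 and KO3 as separate mice, but their counts differed by little more than counting noise. They were therefore counted as 1 sample, as for a library that may be a repeat, which left 3 WT and 2 KO samples. WT3 and KO1 stood apart from the other libraries: the summed level of 20 squamous epithelium markers, of which 19 were detected and Crnn was at 0, was 5138 and 9715 CPM (counts scaled to a library of 1e+06) in these libraries against 9.39 to 11.6 CPM in the others. Results of the members that differ in size, sign or call for WT1 and WT2 against KO2 and KO3 are given for those libraries too, and the wider pathway is described for them in a paragraph of its own. The markers of club and ciliated cells, in which airway mucins are made, were present in every library, and 7 of the 8 club cell markers were at 1 CPM or more throughout. In these whole-lung samples, fewer cells of a type and less RNA per cell cannot be told apart.

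The members lie on 5 chromosomes of GRCm38 and all are protein-coding. Muc5ac (chr7:141788972-141819231, plus strand) and Muc5b (chr7:141839070-141873084, plus strand) are neighbours, 19.84 kb apart, with Muc2 34.28 kb to the left and Tollip 1.73 kb to the right. Muc4 (chr16:32735886-32782391, plus strand) and Muc20 (chr16:32777419-32797435, minus strand) overlap tail to tail and share 627 exonic bases on opposite strands. Whether counting used the strand is not given in the sources used here, so reads from that overlap cannot be assigned with certainty. Muc1 is at chr3:89229057-89233381 (plus strand), Agr2 at chr12:35992907-36004087 (plus strand), Spdef at chr17:27714352-27728955 (minus strand) and Tff2 at chr17:31141049-31144282 (minus strand, between Tff3 and Tff1). The RefSeq promoter table (GRCm38.p6) matched 5 members: Muc1, Muc4, Muc20, Agr2 and Spdef. The 250 bases before the start are shown for Muc1 (chr3:89228806-89229055, plus strand) and Spdef (chr17:27728952-27729201, minus strand), the pair of members with the most alike pattern over the samples, with capitals marking a TATAAA:
Muc1: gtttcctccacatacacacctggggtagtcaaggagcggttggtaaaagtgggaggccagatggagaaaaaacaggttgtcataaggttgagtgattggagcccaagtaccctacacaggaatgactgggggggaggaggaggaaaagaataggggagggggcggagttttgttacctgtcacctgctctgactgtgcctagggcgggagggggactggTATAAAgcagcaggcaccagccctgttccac
Spdef: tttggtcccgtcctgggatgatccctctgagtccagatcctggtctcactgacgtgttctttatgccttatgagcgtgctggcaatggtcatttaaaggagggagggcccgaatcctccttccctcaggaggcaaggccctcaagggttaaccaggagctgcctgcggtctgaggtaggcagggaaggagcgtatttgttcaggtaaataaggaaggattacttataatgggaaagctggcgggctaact
The letters TATAAA were searched on both strands with CACGTG (an E-box), AGGTCA (a nuclear receptor half-site) and TGTTTAC (a forkhead motif) in the same window, and none of these overlaps another. TATAAA, present in 13.0% of 27025 promoters, began 31 bases before the start in Muc1 and 36 bases before it in Muc4. TGTTTAC, present in 3.09% of them, was found once, on the minus strand of Muc20, 248 bases before the start. CACGTG (6.05% of promoters) and AGGTCA (13.8%) had no match in the 5 windows, and none of the 4 motifs had one in Agr2 or Spdef, which says only that these letters are not in this window.

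Comparing genotypes, 1 of the 8 members passed the test: Muc1, which was higher in KO. Muc1 averaged 237 ± 5.35 CPM in WT (SD, n = 3) against 328 ± 7.95 CPM in KO (SD, n = 2). The other members gave an edgeR adjusted p between 0.126 and 0.933. By the same test, 2.28% of the 18660 genes tested passed in either direction 1.38% passed as higher in KO and 0.906% as lower. In 3 of the 8 members (Muc1, Muc20 and Spdef) every KO library was above every WT library, against 20.0% of all tested genes. In 0 members was every KO library below every WT library, against 20.7% of all genes. Of the fitted log2 fold changes of the members, 4 were positive and 4 negative, with a median of 0.13 beside 0.02 over all genes tested.

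**Figure D1:**
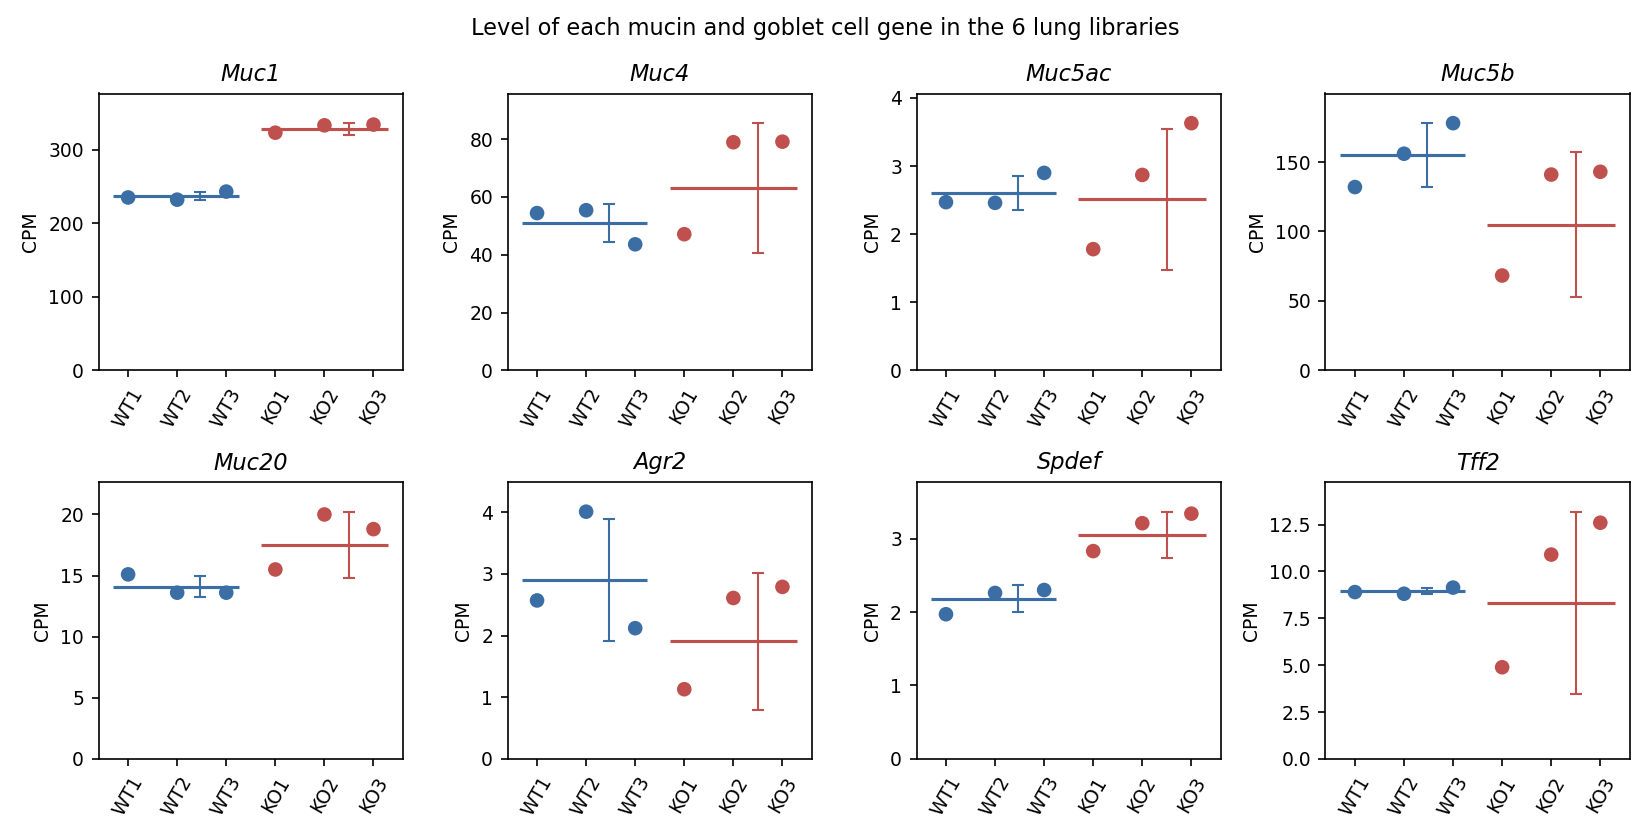
The 8 panels plot the level of each gene in CPM (vertical axis from 0) in the WT (blue) and KO (red) libraries. Horizontal lines are group means and bars the SD over 3 WT and 2 KO samples (KO2 and KO3 counted as 1). The KO points of Muc1, Muc20 and Spdef lie above all WT points, and KO1 is the lowest point for Muc5ac, Muc5b, Agr2 and Tff2.

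Of the membrane mucins, Muc1 was at 235, 232 and 243 CPM in WT1, WT2 and WT3 and at 323, 333 and 334 CPM in KO1, KO2 and KO3. The groups did not overlap, and KO1 was close to the other KO libraries although it stood apart in squamous genes. The log2 fold change was 0.48 (SE 0.05, 95% interval 0.34 to 0.61), that is 1.39-fold, with an edgeR adjusted p of 0.0446. The call lay close to the threshold and was lost without any 1 of the samples. The edgeR adjusted p was 0.170 without WT1, 0.189 without WT2 and 0.123 without WT3, fits in which 0 of all genes tested passed. With any 1 sample left out, the log2 fold change of Muc1 stayed between 0.45 and 0.49. Without KO1, or without KO2 and KO3, the KO arm is 1 sample that is assumed to vary as the WT samples do, here and for the other members. An offset for gene length and GC content lowered the log2 fold change to 0.38 (edgeR adjusted p 0.167), in a fit in which 0 of all genes tested passed. Over the 17 alternatives the adjusted p ran from 1.71e-20 with DESeq2 to 0.189. The alveolar type 2 markers, a list led by Sftpc, Sftpb and Sftpa1, all 10 at 1 CPM or more, summed to 21935 to 23032 CPM in WT and 31259 to 32998 CPM in KO. Sftpc took 54.4% to 59.2% of that sum. Of the 10 markers, 4 passed as higher in KO (Sftpc, Sftpb, Sftpa1 and Sftpd), beside 1.38% of all genes tested. Abca3 and Slc34a2 had log2 fold changes of 0.07 and 0.12 (edgeR adjusted p 0.454 and 0.269). Per 1000 CPM of these markers, Muc1 was at 10.7, 10.3 and 10.5 CPM in WT1, WT2 and WT3 and at 9.78, 10.6 and 10.7 CPM in KO1, KO2 and KO3. On this ratio the genotypes overlapped. The part of these cells in the Muc1 difference was not tested. The neighbours Mtx1 and Trim46 had log2 fold changes of 0.27 and 0.10, with edgeR adjusted p values of 0.0730 and 0.639.

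Muc4, the longest of the membrane mucins here, was at 54.4, 55.4 and 43.6 CPM in WT1, WT2 and WT3 and at 47.1, 78.9 and 79.1 CPM in KO1, KO2 and KO3. KO2 and KO3 were above every WT library, whereas KO1 lay within the WT range. The log2 fold change of 0.31 (SE 0.24, 95% interval -0.31 to 0.93) did not pass, with an edgeR adjusted p of 0.471. Within WT1, WT2, KO2 and KO3 its value was 0.52 (adjusted p 0.00105), in a fit in which 32.7% of genes passed and in which KO2 and KO3 stood as separate samples, so that its spread within KO was close to counting noise. Without KO2 and KO3 it was -0.12, and the adjusted p ran from 0.00105 to 0.666 over the alternatives. Muc20, whose end overlaps Muc4, was at 15.1, 13.6 and 13.6 CPM in WT1, WT2 and WT3 and at 15.5, 20.0 and 18.8 CPM in KO1, KO2 and KO3. The groups did not overlap, but KO1 was only just above WT1. Its log2 fold change was 0.31 (SE 0.13, 95% interval -0.01 to 0.64), with an edgeR adjusted p of 0.193, and 0.43 within WT1, WT2, KO2 and KO3 (adjusted p 0.00967, in a range up to 0.475 over the alternatives). Without KO2 and KO3 it was 0.14, and without KO1 it was 0.46. Both genes shared the higher level of KO2 and KO3, and reads of the shared exonic stretch may count in either. Per 1000 CPM of ciliated cell markers, Muc4 was at 19.4 to 24.1 CPM in WT and 22.1 to 26.9 CPM in KO, and Muc20 at 5.21 to 6.71 CPM and 6.38 to 7.27 CPM, so that both overlapped on that scale.

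Neither gel-forming mucin passed the test. Muc5b was the more abundant, with 132, 156 and 178 CPM in WT1, WT2 and WT3 and 68.3, 141 and 143 CPM in KO1, KO2 and KO3. KO1 was far below all other libraries, at 0.481 of the mean of KO2 and KO3, while those lay inside the WT range. Muc5b averaged 155 ± 23.0 CPM in WT (SD, n = 3) against 105 ± 52.1 CPM in KO (SD, n = 2), and its log2 fold change of -0.55 (SE 0.33, 95% interval -1.40 to 0.29) did not pass, with an edgeR adjusted p of 0.348. It was -0.13 without KO1, -1.19 without KO2 and KO3, and -0.02 within WT1, WT2, KO2 and KO3 (edgeR adjusted p 0.866), so its size differed with the KO sample used. Muc5ac was scarce, at 2.47, 2.46 and 2.90 CPM in WT1, WT2 and WT3 and 1.78, 2.87 and 3.63 CPM in KO1, KO2 and KO3. KO libraries lay on both sides of the WT range. The log2 fold change was -0.05 (SE 0.29, 95% interval -0.78 to 0.69), with an edgeR adjusted p of 0.933, and its sign changed between alternatives, from -0.56 without KO2 and KO3 to 0.39 within WT1, WT2, KO2 and KO3. The Muc5ac counts behind these values were 112 to 212 per library, with a 95% Poisson interval of 92.2 to 135 for the 112 counts in KO1. Such intervals are on raw counts, not scaled for depth, and cover counting error only. Next to this pair, Muc2, the intestinal gel-forming mucin, was at 0.698 to 1.27 CPM (log2 fold change -0.08), and Tollip, a regulator of Toll-like receptor signalling, was at 107 to 124 CPM with a log2 fold change of 0.05 (edgeR adjusted p 0.706).

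Tff2 was at 8.90, 8.81 and 9.14 CPM in WT1, WT2 and WT3 and at 4.89, 10.9 and 12.6 CPM in KO1, KO2 and KO3. The WT libraries were nearly alike, KO1 was below them and KO2 and KO3 were above them. The log2 fold change was therefore near 0, at -0.10 (SE 0.37, 95% interval -1.04 to 0.84), with an edgeR adjusted p of 0.892, and it was 0.39 without KO1 and -0.87 without KO2 and KO3. Within WT1, WT2, KO2 and KO3 the value was 0.41 (adjusted p 0.0209, in a range up to 0.975 over the alternatives). The other trefoil genes beside it were almost silent: Tff1 had 2 counts in WT3 and 0 elsewhere, and Tff3 was not detected in WT but gave 3, 30 and 25 counts in KO1, KO2 and KO3.

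Agr2 was at 2.57, 4.01 and 2.12 CPM in WT1, WT2 and WT3 and at 1.13, 2.61 and 2.79 CPM in KO1, KO2 and KO3. KO1 was again the lowest, with 71 counts (95% Poisson interval 55.5 to 89.6) against 127 to 282 in the other libraries, and the rest of the KO values fell inside the WT range. The log2 fold change of -0.59 had an SE of 0.47 and a 95% interval of -1.79 to 0.62, with an edgeR adjusted p of 0.480, and ran from -1.36 without KO2 and KO3 to -0.11 without KO1, with -0.28 within WT1, WT2, KO2 and KO3. Its paralogue and neighbour Agr3, found in ciliated cells, was at 6.50 to 9.01 CPM in WT and 6.56 to 9.99 CPM in KO, with a log2 fold change of 0.01.

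Spdef was at 1.97, 2.26 and 2.30 CPM in WT1, WT2 and WT3 and at 2.83, 3.21 and 3.34 CPM in KO1, KO2 and KO3. Each KO library exceeded each WT library, with no gap between KO1 and the rest as large as for Tff2. Spdef averaged 2.18 ± 0.183 CPM in WT (SD, n = 3) against 3.05 ± 0.317 CPM in KO (SD, n = 2). The log2 fold change of 0.49 (SE 0.15, 95% interval 0.10 to 0.89) was about as large as that of Muc1 but rested on 138 to 199 counts per library. Its unadjusted edgeR p of 0.0237 became 0.126 after adjustment. Of all genes tested, 27.3% had an unadjusted p of at most 0.05. It passed in 4 of the 17 alternatives, with adjusted p values from 0.0190 to 0.0432: with the 6 libraries separate (18.9% of genes passed), with DESeq2 (14.4%), within WT1, WT2, KO2 and KO3 (32.7%) and with the squamous level as a covariate (32.9%). KO2 and KO3 stood as separate samples in all of these but the DESeq2 fit, and the sign stayed positive in all 17.

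**Figure D2:**
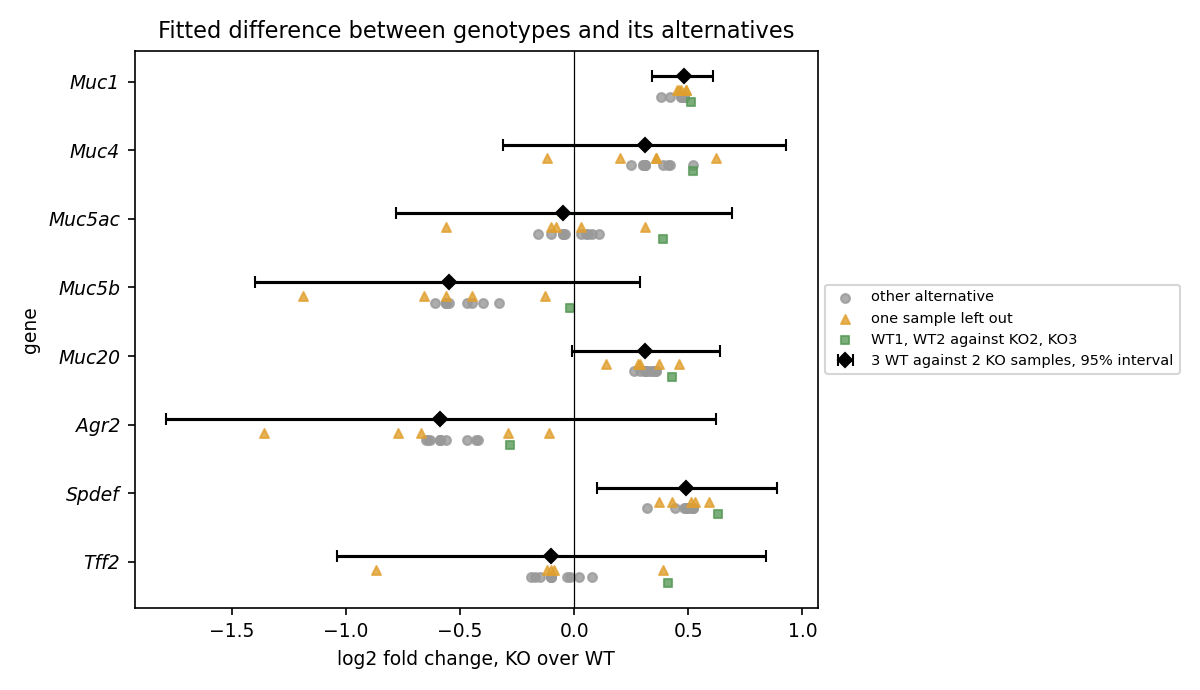
Fitted log2 fold change of KO over WT (horizontal axis) for each gene (vertical axis). Black diamonds with bars are the estimates from 3 WT and 2 KO samples with their 95% intervals, orange triangles leave out 1 sample, green squares compare WT1 and WT2 with KO2 and KO3, and grey points are the other alternatives. Muc1 and Spdef stay right of 0 in all of them, while Muc4, Muc5ac and Tff2 fall on both sides.

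Levels between genes were set on a scale of CPM per kb of exonic length. Muc1 was highest, at 99.0 to 143 CPM per kb over the 6 libraries. Tff2, the shortest transcript of the set (0.58 kb), came next with 8.37 to 21.6, followed by Muc5b with 4.57 to 11.9, Muc4 with 3.71 to 6.72 and Muc20 with 3.37 to 4.97 CPM per kb. Neighbours in this stretch of the order overlapped in their ranges. Agr2 (0.873 to 3.11 CPM per kb) and Spdef (0.853 to 1.45) also overlapped with each other, and Muc5ac was lowest, at 0.165 to 0.338 CPM per kb, below all the others in every library. Long transcripts as a class were slightly lower in KO. The median log2 fold change was -0.16 for genes with 8 kb or more of exonic length, to which Muc4 (11.76 kb), Muc5ac (10.75 kb) and Muc5b (14.96 kb) belong, and 0.10 for genes of 2 to 4 kb, such as Muc1 and Spdef. In KO1 the class of 8 kb or more differed from the WT mean by a median of -0.21, beside -1.19 for Muc5b.

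The members differed in their pattern over the libraries. KO1 was the lowest of the 6 libraries for Muc5ac, Muc5b, Agr2 and Tff2, that is 4 of 8 members (50.0%) beside 25.4% of all tested genes. On the log2 scale, KO1 differed from the WT mean by -1.19 for Muc5b, -1.36 for Agr2, -0.87 for Tff2 and -0.55 for Muc5ac, and by 0.45 for Muc1 and 0.38 for Spdef. KO2 and KO3 differed from the WT mean by -0.15 to 0.49 for Agr2, Muc5b, Muc5ac and Tff2. Likeness of pattern was measured as the root mean square (RMS) difference of centred log2(CPM + 0.1) values over the 5 samples, among 15170 genes with a mean of at least 1 CPM. Muc1 and Spdef differed by 0.09, with 509 genes closer to Muc1 than Spdef was. Muc20 differed from Muc1 by 0.14, from Spdef by 0.16 and from Muc4 by 0.18. Muc5ac and Tff2 differed by 0.16 and Muc5b and Tff2 by 0.25, and the farthest pair, Muc1 and Agr2, by 0.72. Over all genes, Muc1 was most like Atpif1 (RMS difference 0.013), Anp32b (0.016) and Mrto4 (0.020), and Spdef most like Selenbp2 (0.024). Muc4 was most like Ccdc151 (0.026) and Muc20 most like Ggt1 and Morn1 (0.025 each). Muc5b had no partner as close, with Cacna1e (0.079), Efcab4b (0.101) and Cyp2a5 (0.113), and Agr2 came nearest to Nek10 (0.126) and Gp2 (0.136), the latter a zymogen granule membrane glycoprotein. Tff2 was most like 9030622O22Rik (0.055) and Muc5ac most like Pcnxl2 (0.043). With 5 samples, many genes match by the order of a few values, and these partners are a description.

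**Figure D3:**
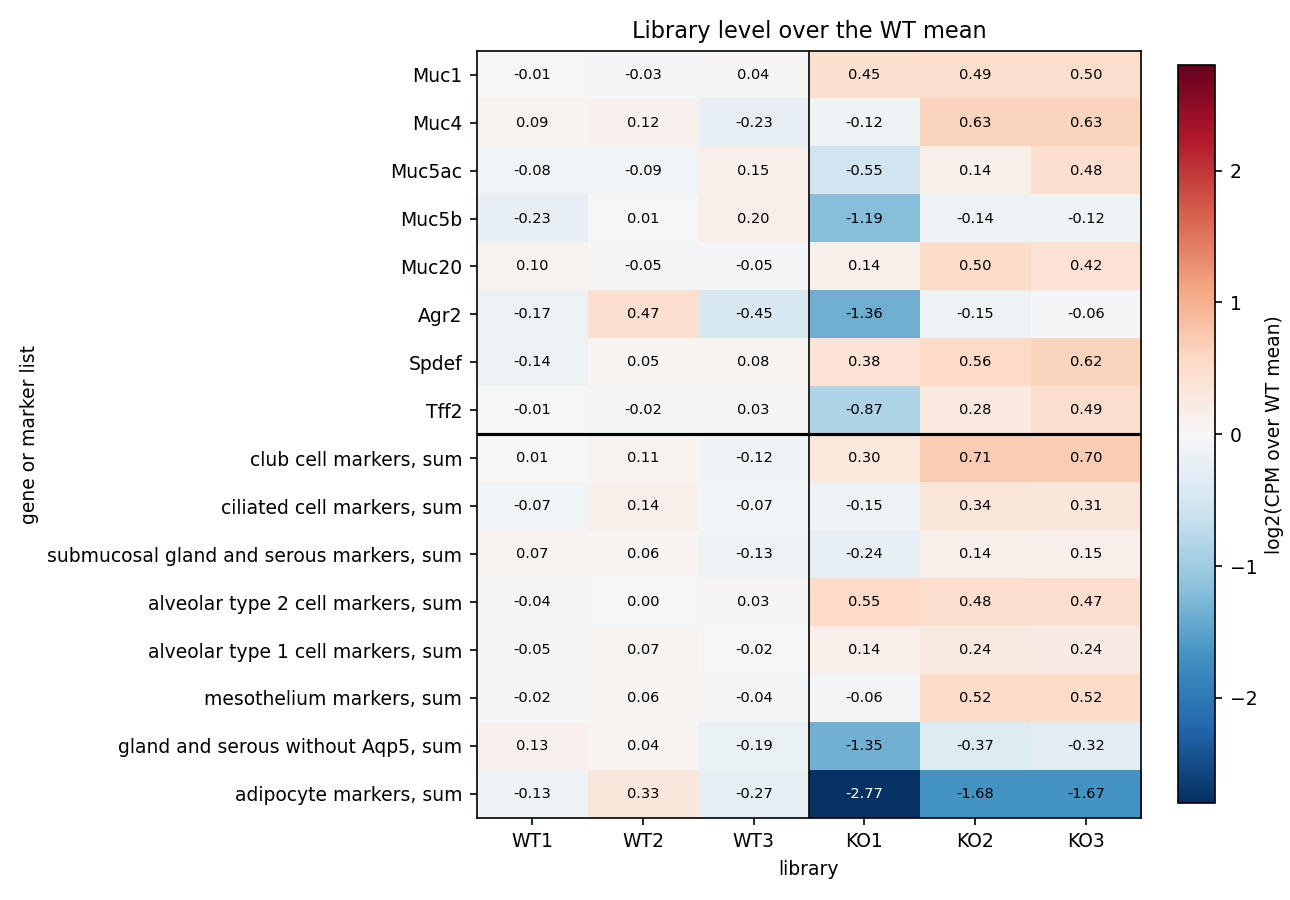
Each row is a gene or the summed level of a marker list, each column a library, and colour and printed value are log2 of the CPM over the mean of the 3 WT libraries. The KO1 column is negative for Muc5ac, Muc5b, Agr2 and Tff2 (-0.55 to -1.36) and for the adipocyte sum (-2.77). It is -0.24 for the gland and serous sum and -1.35 for that sum without Aqp5. Muc4 (-0.12) and the ciliated (-0.15) and mesothelium (-0.06) sums are slightly negative there. The club, alveolar type 2 and alveolar type 1 sums are positive in all KO columns (0.14 to 0.71).

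Marker sums of airway cells were set beside these levels. Club cell markers, led by Scgb1a1, Cyp2f2 and Scgb3a2, summed to 30259, 32460 and 27664 CPM in WT1, WT2 and WT3 and to 37064, 49122 and 48950 CPM in KO1, KO2 and KO3. None of the 8 listed genes was at 0. Most of the sum was Scgb1a1, at 25700, 27400 and 23400 CPM in WT1, WT2 and WT3 and 32100, 42800 and 42500 CPM in KO1, KO2 and KO3. Of the 8, 7 had a positive log2 fold change and 0 passed the edgeR test. Scgb3a2, Gabrp and Scgb3a1 were at 0.15, 0.15 and -0.16. The ciliated markers (11 measured, led by Sec14l3, Tppp3 and Foxj1) summed to 2250 to 2606 CPM in WT and to 2135, 3000 and 2944 CPM in KO1, KO2 and KO3. Sec14l3 took 54.3% to 64.3% of that sum, and without it the sum was 834 to 930 CPM in WT and 975, 1254 and 1251 CPM in KO1, KO2 and KO3. Of the 11 ciliated markers, 8 had a positive log2 fold change, Tppp3 passed (0.45, edgeR adjusted p 0.0447), and KO1 was lowest for 3 (27.3%). The gland and serous markers did not move together. Aqp5, a water channel that alveolar type 1 cells also express, took 45.5% to 75.9% of their sum and was at 265 to 290 CPM in WT and 372 to 405 CPM in KO (log2 fold change 0.49, edgeR adjusted p 0.0474). Ltf, the secreted iron-binding protein lactoferrin, was at 127, 107 and 77.1 CPM in WT1, WT2 and WT3 and at 30.6, 56.1 and 57.8 CPM in KO1, KO2 and KO3 (log2 fold change -1.24, edgeR adjusted p 0.104). Without Aqp5 the gland and serous sum was 329, 310 and 263 CPM in WT1, WT2 and WT3 and 118, 232 and 241 CPM in KO1, KO2 and KO3, below WT in every KO library and lowest in KO1. With Aqp5 it was 527 to 604 CPM in WT and 490, 637 and 639 CPM in KO1, KO2 and KO3. Dcpp1, Dcpp2, Prr27 and Pip were at 0, and without Aqp5 nearly all of the sum was Bpifb1 and Ltf. Azgp1, another marker of this list, was at 6.69 to 7.7 CPM in WT and 7.02 to 8.14 CPM in KO (log2 fold change 0.06). The sums without Sec14l3 and Aqp5 were added after the values had been seen.

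Of the gastric mucosa markers, listed because Tff2 is abundant there, Chia1 took 94.9% to 95.7% of the sum. Gkn1, Gkn2, Tff1, Atp4a, Atp4b, Gif and Muc6 were at 0 to 0.270 CPM in every library. Gkn3 was at 1.59 to 2.5 CPM in WT and 1.98 to 2.31 CPM in KO, and Pgc, a pepsinogen also made by alveolar type 2 cells, at 0.628 to 1.27 CPM and 1.45 to 1.85 CPM (edgeR adjusted p 0.194). Without Chia1 the gastric sum was 3.05 to 3.33 CPM in WT and 3.69 to 4.32 CPM in KO. The adipocyte markers, led by Cfd, Fabp4 and Plin4, summed to 973, 1334 and 882 CPM in WT1, WT2 and WT3 and to 156, 331 and 335 CPM in KO1, KO2 and KO3. All 10 had a negative log2 fold change, 4 passed the edgeR test (0.906% of all genes passed as lower), and KO1 was lowest for 8 (25.4% of all genes). The mesothelium markers summed to 536 to 578 CPM in WT and to 531, 792 and 791 CPM in KO1, KO2 and KO3, a split of KO1 from KO2 and KO3 as in Muc4. The basal cell markers, led by Krt5, were at 268 and 455 CPM in WT3 and KO1 and 11.2 to 20.9 CPM elsewhere. Among the WT libraries, WT3, in which squamous and basal markers were also high, had the highest level of Muc1, Muc5b, Muc5ac, Spdef and Tff2. It had the lowest of Muc4 and Agr2. WT3 was close to the next WT library for Muc1 (243 and 235 CPM), Spdef (2.30 and 2.26 CPM) and Tff2 (9.14 and 8.90 CPM).

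Per 1000 CPM of club cell markers, Muc5b was at 4.36, 4.80 and 6.43 CPM in WT1, WT2 and WT3 and at 1.84, 2.87 and 2.92 CPM in KO1, KO2 and KO3, that is 0.456 of the WT mean. On this ratio every KO library was below every WT library for Muc5b, Agr2, Muc5ac and Tff2, 4 of the 8 members (50.0%). But the same held for 62.2% of all tested genes, since the club cell sum, most of it Scgb1a1, was itself higher in KO. Muc1, Muc4, Muc20 and Spdef overlapped on this ratio. Per 1000 CPM of ciliated markers, Muc5b was at 58.6, 59.8 and 79.1 CPM in WT1, WT2 and WT3 and at 32.0, 46.9 and 48.6 CPM in KO1, KO2 and KO3. On that scale Muc5b alone among the members lay lower in every KO library than in any WT library, as 17.6% of all genes did, and Muc1 and Spdef were the members with every KO library above (3.79% of all genes). Without Sec14l3 in the ciliated sum, Muc5b and Agr2 were the members below WT in every KO library, as were 47.5% of all genes, and Muc1 and Spdef overlapped. Per 1000 CPM of alveolar type 2 markers, Muc5b and Agr2 were below WT in every KO library, as were 73.4% of all genes, and the other 6 members overlapped. The ciliated and alveolar scales were added after the levels had been seen. The part of cell makeup in any of these differences was not tested.

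**Figure D4:**
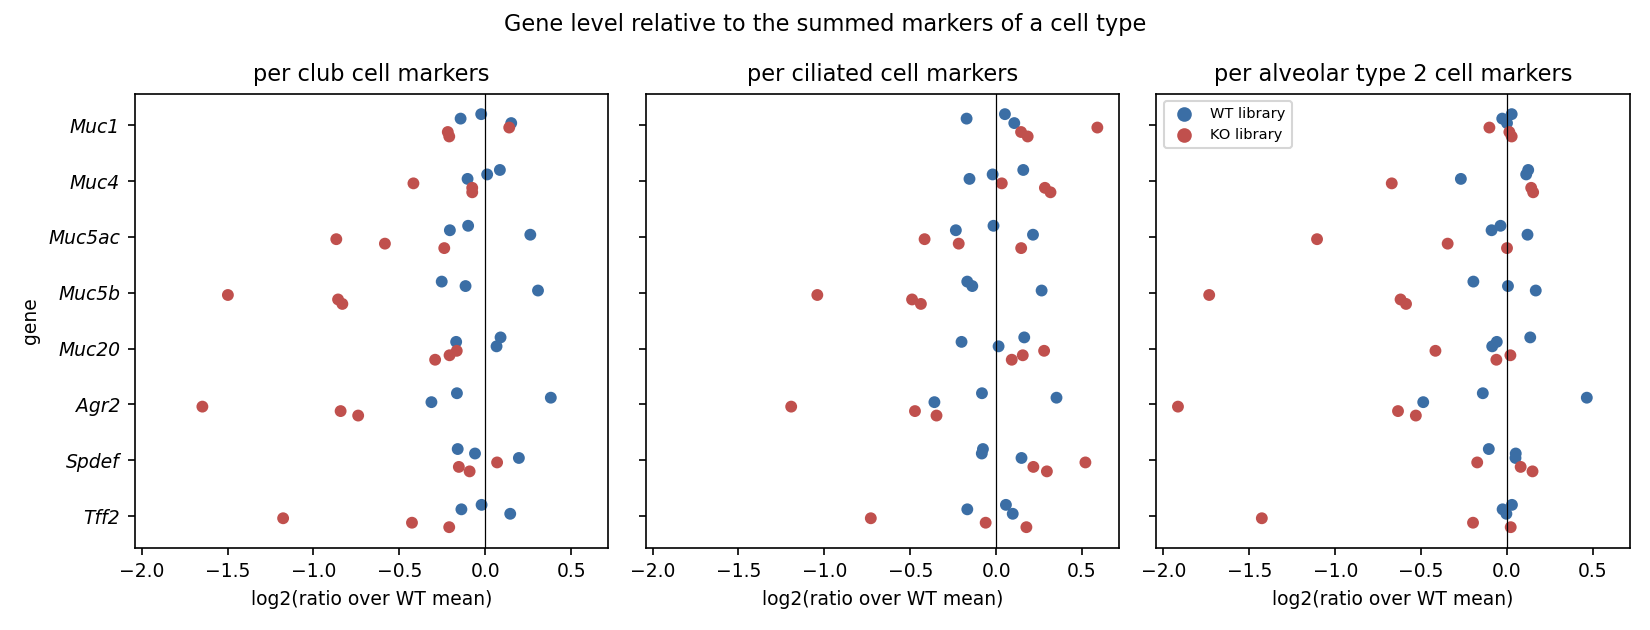
Each panel plots, for the 8 genes (vertical axis), the level in each library divided by the summed markers of club, ciliated or alveolar type 2 cells, as log2 over the WT mean (horizontal axis), with WT libraries in blue and KO libraries in red. Muc5b lies below WT in every KO library in all 3 panels. Muc1, Muc4, Muc20 and Spdef overlap between the genotypes in the club and alveolar type 2 panels.

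The wider mucus pathway was examined in 5 lists with 91 different genes, of which 80 were tested, 50 with a positive and 30 with a negative log2 fold change. Of these, 3 passed, all higher in KO: St6galnac2, Hes1 and Vamp8. That is to be read beside the 1.38% of all genes that passed in this direction. St6galnac2 adds sialic acid to O-linked sugars, as on mucins. It was at 70.0, 70.7 and 70.3 CPM in WT1, WT2 and WT3 and at 96.0, 96.2 and 97.1 CPM in KO1, KO2 and KO3, and its log2 fold change was 0.46 (SE 0.04, edgeR adjusted p 0.0446). Hes1, a transcriptional repressor downstream of Notch, was at 49.3, 48.5 and 49.0 CPM in WT1, WT2 and WT3 and at 84.3, 119 and 121 CPM in KO1, KO2 and KO3, a log2 fold change of 1.07 (SE 0.15, edgeR adjusted p 0.0474). Vamp8, a SNARE protein of secretory granule release, was at 214, 217 and 218 CPM in WT1, WT2 and WT3 and at 284, 319 and 325 CPM in KO1, KO2 and KO3, a log2 fold change of 0.49 (SE 0.07, edgeR adjusted p 0.0474). Each of these genes had KO libraries well clear of the WT libraries. The calls were as close to the threshold as that of Muc1. Without WT1, WT2 or WT3, 0 of the listed genes and 0 of all genes tested passed. With the length and GC offset 0 of the listed genes passed, and with scaling by library size alone 1 did.

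Among other mucins, 5 of the 7 found in the table were tested and none passed with edgeR, and 0 reached the threshold before adjustment. Muc16, a large membrane mucin, was the most abundant of them, at 7.44 to 9.04 CPM in WT and 5.71 to 8.96 CPM in KO. Muc15 was detected in WT3 and KO1 alone, at 1.45 and 2.49 CPM, the libraries with squamous markers. Muc13 was at 0.327 to 0.615 CPM in WT and 0.429, 1.53 and 1.25 CPM in KO1, KO2 and KO3. The goblet secretory programme had 20 of 24 genes tested, 10 positive and 10 negative, with a median log2 fold change of -0.04; none passed with edgeR, and 6 of the 20 had a p below the threshold before adjustment, a level that 27.3% of all genes reached. The most abundant gene of this list, Bpifa1, an antimicrobial protein of airway secretory cells, was at 1200, 1180 and 832 CPM in WT1, WT2 and WT3 and at 208, 569 and 572 CPM in KO1, KO2 and KO3. Its KO values were all below WT, with KO1 lowest as for Muc5b, at a log2 fold change of -1.45 (SE 0.47, edgeR adjusted p 0.133). Bpifb1, a related secreted protein, is also among the gland and serous markers above. It was at 195, 196 and 179 CPM in WT1, WT2 and WT3 and at 80.3, 167 and 175 CPM in KO1, KO2 and KO3, again with KO1 far below the rest. Tspan8, a tetraspanin, was at 99.1 to 116 CPM in WT and 131 to 136 CPM in KO (log2 fold change 0.32, edgeR adjusted p 0.0851). For Zg16, WT1 and WT2 held 1 count each and WT3 held 3, against 13, 149 and 100 counts in KO1, KO2 and KO3. It met the filter on low counts only through the KO libraries and did not pass (edgeR adjusted p 0.0704).

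In mucin-type O-glycosylation, 22 of 23 genes were tested, 13 positive and 9 negative, with a median of 0.07. St3gal1, Galnt18 and Galnt1 were the most abundant, with log2 fold changes of -0.07, 0.21 and -0.11 and edgeR adjusted p values of 0.474, 0.149 and 0.384. C1galt1, which builds the core O-glycan, was at 23.9 to 27.9 CPM in WT and 15.8 to 20.9 CPM in KO (log2 fold change -0.47, edgeR adjusted p 0.120). St6galnac1, a sialyltransferase related to St6galnac2, had the largest positive value of the list on few reads, with 3, 3 and 0 counts in WT1, WT2 and WT3 and 19, 12 and 8 in KO1, KO2 and KO3. It met the filter on low counts only through the KO libraries and did not pass (edgeR adjusted p 0.10). In the list of mucin transcription and IL-13/EGFR signalling, 19 of 21 genes were tested, 15 positive and 4 negative, with a median of 0.33, the highest of these lists. Nkx2-1, the lung epithelial lineage factor, was at 149 to 161 CPM in WT and 198 to 237 CPM in KO (log2 fold change 0.48, edgeR adjusted p 0.0586), and Stat6, which relays IL-13 signals, was at 198 to 205 CPM and 194 to 198 CPM (log2 fold change -0.03). Egfr had the lowest log2 fold change of the list, -0.39 (edgeR adjusted p 0.111), and Il13 itself was not tested, with 0 to 0.0569 CPM. In granule exocytosis and hydration, all 17 genes were tested, 12 positive and 5 negative, with a median of 0.15. Scnn1a, the sodium channel subunit that controls airway surface liquid, was at 384 to 405 CPM in WT and 398 to 481 CPM in KO, and the chloride channel Ano1 had the lowest log2 fold change, -0.23 (edgeR adjusted p 0.366). The largest positive values of the signalling and exocytosis lists were those of Ereg (1.35), an EGFR ligand, and Syt2 (0.74), a calcium sensor of granule release. Both were highest in WT3 and KO1, the libraries with squamous markers, at 1.67 and 3.41 CPM for Ereg and 1.78 and 2.65 CPM for Syt2.

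Within WT1, WT2, KO2 and KO3, 37 of the listed genes passed, in the fit in which 32.7% of all genes did and KO2 and KO3 stood as separate samples. They were 2 of 5 tested among other mucins, 10 of 20 in the goblet secretory programme (7 higher and 3 lower in KO), 7 of 21 in O-glycosylation (3 higher and 4 lower), 12 of 19 in transcription and IL-13/EGFR signalling (9 higher and 3 lower) and 7 of 17 in exocytosis and hydration (7 higher), with Chst4 counted in more than 1 list. In this fit Bpifa1 had a log2 fold change of -1.06, and Bpifb1 one of -0.19, nearer to 0 than with KO1. Hes1 was at 1.30, Vamp8 at 0.58 and St6galnac2 at 0.46. Muc13 was at 1.55 and Nkx2-1 at 0.61, further from 0 than over all samples. The largest values were those of genes close to silent in WT: Tff3 (7.92), Zg16 (7.02) and Muc3 (4.32). These genes met the filter on low counts only through KO2 and KO3, so their passing in this fit is no support for a difference. Muc3 held 1, 1 and 2 counts in WT1, WT2 and WT3 and 8, 21 and 17 in KO1, KO2 and KO3. Ereg was at 0.21 and Syt2 at -0.35, and neither passed.

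**Figure D5:**
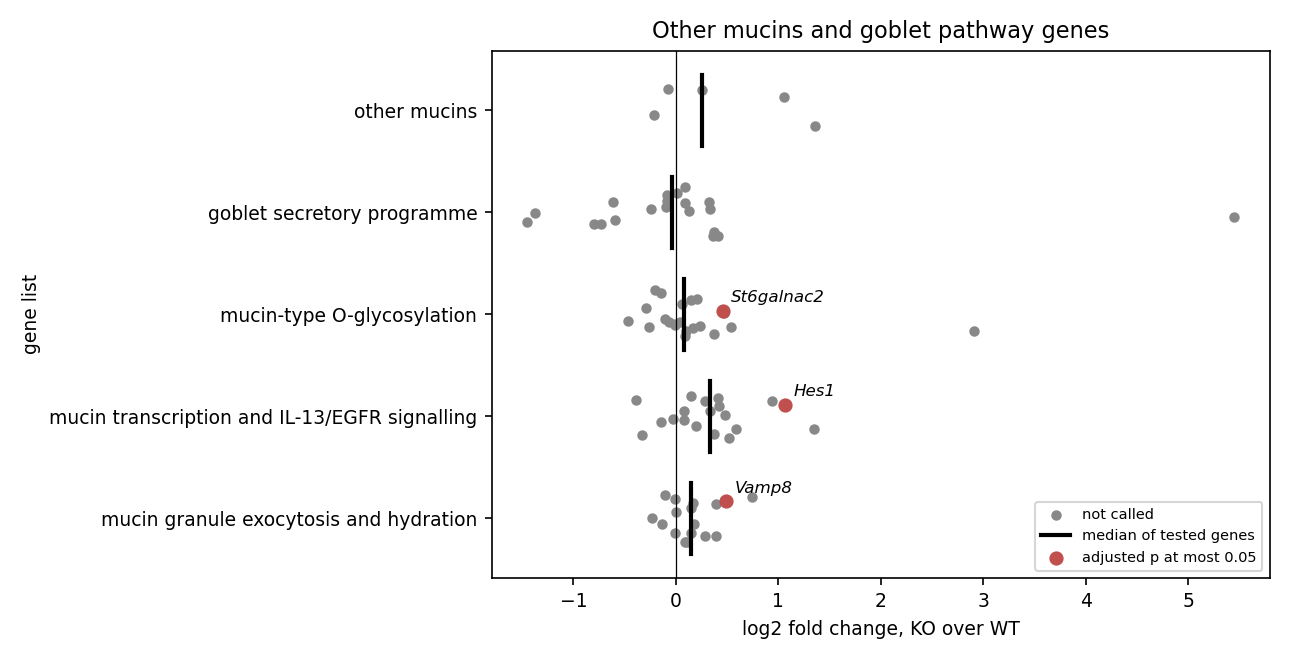
Fitted log2 fold change of KO over WT (horizontal axis) of the tested genes of each list (vertical axis). Grey points did not pass, red points passed the edgeR test and black bars are list medians, from -0.04 to 0.33; St6galnac2, Hes1 and Vamp8 are the genes that passed, and the point at 5.45 is Zg16.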

How the data were processed

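Lung libraries of 3 WT and 3 KO mice at ZT7 were used. The deposited values are raw counts of reads per gene, with no normalization. Per the labels, the submitters' processing notes name Trimmomatic 0.36, STAR 2.5.3a, Picard 2.9.0 and HTSeq 0.6.0 on mm10 (GRCm38). The annotation release, the library kit and the strand setting are not given in the sources used here, so overlapping genes are uncertain. The study's methods give the libraries as separate mice.

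KO2 and KO3 had a median variance of 1.71 to 1.93 times the counting variance for genes with 20 to 20000 counts over the pair. For genes with more counts it was 3.32 times, and these libraries were summed. For WT1 and WT2, kept separate, it was 1.86 times at 20 to 200 counts. It was 3.69 times at 200 to 2000 counts, 9.32 times at 2000 to 20000 and 51.6 times above that. Counts were tested with the edgeR 4.0.16 quasi-likelihood test in R 4.3.3 (filterByExpr, TMM, two-sided, 3 residual degrees of freedom), with Benjamini-Hochberg adjustment over 18660 genes and a threshold of 0.05. The steps were run on simulated counts with planted changes larger than those fitted for the members, which does not test them at the members' size of change. CPM used TMM-scaled library sizes. A floor of 3 counts corresponds to 0.0410 to 0.0514 CPM. DESeq2 1.42.0, other scalings and filters, left-out samples and a length and GC offset were alternatives. So were a replicate block and a squamous covariate, both with the 6 libraries separate. Coordinates and exonic lengths are from GENCODE M21.

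The members and gene lists were chosen with earlier results of these data known. Foxa3, Galnt12, Gcnt3 and Chst4 are in more than 1 list. Muc3a, Muc17, Muc21, Cfap126 and Cblif were not found in the table by symbol. From each list, the genes that passed, the most abundant and those with the largest positive and negative log2 fold change could be named, with the neighbours of members and their 3 closest genes in pattern.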

Additional observations from a re-analysis of the deposited data

How the results depend on the processing

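The number of genes passing was 426. It was 3402 with the 6 libraries separate, 1157 with the 6 libraries separate and a replicate block, 3875 with DESeq2 and 937 with at least 10 counts in every library. It was 5985 for WT1 and WT2 against KO2 and KO3 and 5923 with the 6 libraries separate and a squamous covariate. With a length and GC offset it was 0 (3539 below the threshold before adjustment). Without WT1, WT2 or WT3 it was also 0 (3346 to 4193 before adjustment). Scaling by library size alone gave 306, of which 38.2% were higher in KO, against 60.3%. In the same order, members passing, 1 at first, numbered 2 with separate libraries, 2 with DESeq2, 5 for WT1 and WT2 against KO2 and KO3, 4 with the squamous covariate, 0 with the length and GC offset and 0 with any sample left out. Listed genes passing, 3 at first, numbered 16 with separate libraries, 7 with the replicate block, 1 with library size alone, 20 with DESeq2, 6 with at least 10 counts, 37 for WT1 and WT2 against KO2 and KO3, 27 with the squamous covariate, 0 with the length and GC offset and 0 to 1 with a sample left out.

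Muc5ac changed sign to 0.08 with separate libraries, 0.03 with the replicate block, 0.05 with KO3 alone, 0.39 for WT1 and WT2 against KO2 and KO3, 0.06 with the squamous covariate and 0.11 with the length and GC offset, and ran from -0.56 to 0.31 with a sample left out. Tff2 changed sign to 0.08 with separate libraries, 0.41 for WT1 and WT2 against KO2 and KO3 and 0.02 with the squamous covariate, and ran from -0.87 to 0.39 with a sample left out. Muc4 passed at 0.52 for WT1 and WT2 against KO2 and KO3 and at 0.41 with the squamous covariate, and ran from -0.12 to 0.62 with a sample left out. Muc20 passed at 0.43 and 0.36 in these fits. Spdef passed at 0.52 with separate libraries, 0.50 with DESeq2, 0.63 for WT1 and WT2 against KO2 and KO3 and 0.52 with the squamous covariate. Muc1 did not pass at 0.38 with the length and GC offset, nor at 0.45 to 0.49 with a sample left out. The cause was not tested. Muc5b and Agr2 stayed negative and did not pass in any of the 17 alternatives.

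Same-numbered samples deviated from their group means with correlations over genes of -0.66, 0.71 and -0.79, so the numbers do not pair the samples. Muc1 had an adjusted p of 0.0374 in the edgeR fit with the 6 libraries separate and the replicate block, beside 0.005 with the libraries separate and no block. No other member passed with the block.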
